A study of Mus musculus with 20 samples.

Results

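The 33 genes described here encode the unfolded protein response and the folding machinery of the endoplasmic reticulum (ER). They were chosen by gene symbol, and all 33 were found among the 45777 genes listed. Each lay above 0 TPM (transcripts scaled to a fixed total per library, a level per transcript length) in all 20 libraries, so that all 33 were among the 18706 genes tested. By role, 8 encode ER chaperones and lectins, 4 protein disulfide isomerases, 3 ER J-domain co-chaperones, 6 sensors and transcription factors, 4 targets of the factors ATF4 and CHOP, and 8 proteins of ER-associated degradation and the translocon. The first 3 of these classes, 15 genes, are called the folding genes below.

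The libraries came from uteri of wild-type B6D2F1 females aged 8 to 12 weeks, with 5 mice in each of 4 groups and 1 horn and 1 library per mouse, collected at 18:00 on day 3.5 of pregnancy. Control mice were pregnant and received neither drug nor cells. The IF (implantation failure) group received a low dose of RU486 on the morning of day 3.5. RU486 (mifepristone) blocks the progesterone and glucocorticoid receptors. It was given by subcutaneous injection, and no vehicle injection of control mice is described. The drug and its injection therefore cannot be told apart. The PBMC group received the same RU486 and, on day 1.5, an injection into the uterine horns of peripheral blood mononuclear cells that had been isolated from non-pregnant mice and cultured without hCG (human chorionic gonadotropin). The PBMC-hCG group differed from it in that the cells had been cultured with hCG. All cells were injected in culture medium, and the paper does not say whether that medium held hCG for this group. The 2 cell groups therefore differ from the IF group by the injection as well as by the cells, and from the control group by RU486 too. Mice given culture medium with hCG but without cells were not analysed here. Because whole uterine tissue was sequenced, fewer cells of a type and less RNA per cell cannot be told apart.

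The ER folds secreted and membrane proteins. BiP, encoded by Hspa5, binds unfolded chains and in the resting state also holds back the sensors IRE1 (Ern1), PERK (Eif2ak3) and ATF6 in the ER membrane. When unfolded protein builds up, IRE1 splices the messenger of XBP1, ATF6 is released and cleaved, and both raise chaperones and degradation factors, while PERK phosphorylates eIF2, which slows translation in general and favours that of ATF4. ATF4 in turn raises amino acid genes, CHOP (Ddit3), the pseudokinase TRIB3 and the phosphatase subunit GADD34 (Ppp1r15a) that reverses the phosphorylation. Splicing, cleavage and phosphorylation were not measured by these data. In the pregnant uterus, epithelium, glands and the decidualizing stroma secrete large amounts of protein.

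The elements through which these pathways act are short, and they were looked for in the RefSeq promoters of build GRCm38.p6, each taken from 250 bases before to 50 bases after the start of the gene. Of the 33 genes, 29 had such a promoter, and Hyou1, Manf, Atf6 and Derl1 had none. The ER stress element ERSE, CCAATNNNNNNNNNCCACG on either strand, is bound by NF-Y together with ATF6 or XBP1. It lay in the promoters of 9 of the 29 genes (31%), Hspa5, Hsp90b1, Calr, Canx, Creld2, Pdia6, Dnajc3, Syvn1 and Derl3, against 0.137% of all 27025 genes with a promoter (0.119% of 32851 promoters). Of these 9, the 4 that were lower in PBMC-hCG mice than in IF mice are shown, with the paired boxes of the element in capitals.
Hspa5 (chr2:34772015-34772053, + strand): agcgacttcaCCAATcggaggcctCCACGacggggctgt
Calr (chr8:84847065-84847103, - strand): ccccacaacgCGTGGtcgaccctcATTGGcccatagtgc
Pdia6 (chr12:17266481-17266519, + strand): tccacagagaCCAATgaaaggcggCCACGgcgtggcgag
Syvn1 (chr19:6046522-6046560, + strand): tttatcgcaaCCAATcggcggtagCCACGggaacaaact
In Calr the element runs in the opposite orientation. Counted from the start of the gene, the stretches begin at -75 in Hspa5, -172 in Calr, -108 in Pdia6 and -54 in Syvn1. The shorter form ERSE-II, ATTGGNCCACG, lay in Dnajb11 and Herpud1, 2 of 29 genes against 0.0444% of all genes. The C/EBP-ATF element that ATF4 binds, TGATGNAA, lay in Trib3, Chac1, Asns and Herpud1 (13.8% of the 29), against 4.51% of all genes. The UPR element UPRE, TGACGTGG, lay in none of the 29 and in 0.714% of all genes. Herpud1 is the 1 gene of the 29 with elements of 2 kinds, which do not overlap. Its elements are shown beside the C/EBP-ATF elements of Chac1 and Asns, 2 targets that moved in opposite directions below, with the matched letters in capitals.
Herpud1, ERSE-II (chr8:94386367-94386397, + strand): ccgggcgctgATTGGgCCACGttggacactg
Herpud1, C/EBP-ATF (chr8:94386307-94386334, + strand): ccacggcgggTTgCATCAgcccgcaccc
Chac1, C/EBP-ATF (chr2:119351039-119351066, + strand): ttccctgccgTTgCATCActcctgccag
Asns, C/EBP-ATF (chr6:7693215-7693242, - strand): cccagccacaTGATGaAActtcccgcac
In Herpud1 and Chac1 the C/EBP-ATF element is read on the opposite strand. A match describes the letters only, and whether a factor was bound was not measured.

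The 20 libraries summed to 999989 to 999999 TPM, as TPM values do by construction, and read depth cannot be recovered from them. Markers of uterine stroma, epithelium, glands, myometrium and endothelium were above 0 in all libraries. Control replicate 2 stood apart, with a summed level of 10 gland markers of 24063 TPM (1343 to 7867 in the other control mice) and of 12 stroma markers of 6612 TPM (10981 to 11687). Gland markers were also high in IF replicate 3 (12320 TPM, 2707 to 6295 in the other IF mice). The same held for PBMC-hCG replicate 4 (10310 TPM, 3867 to 4195 in the others). For the comparisons with control the counts without control replicate 2 are given beside those with it, as are the values of Ern1, Dnajb9 and Asns.

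At the level of single genes, the most abundant was Calr (calreticulin, a lectin chaperone that binds calcium), with a mean of 790 TPM over the 20 mice, followed by Hspa5 (729), P4hb (595), Hsp90b1 (590), Pdia3 (439) and Pdia6 (337). The sensors lay far below, with Ern1 at 21.9, Atf6 at 21.7 and Eif2ak3 at 17.2 TPM, and the least abundant were Trib3 (8.04) and Chac1 (2.42). The 15 folding genes together made up 5306 ± 1337 TPM in the control group, 5474 ± 1336 in the IF group, 4533 ± 1216 in the PBMC group and 3552 ± 791 in the PBMC-hCG group (SD, n = 5 mice each). These sums ran from 3941 to 7480 TPM in control mice, from 3880 to 7581 in IF mice, from 3550 to 6604 in PBMC mice and from 2963 to 4708 in PBMC-hCG mice, so each group overlapped with every other.

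Within a group the folding genes stood high or low together in the same mice. Control replicate 5 had the highest level of its group in 14 of the 15, IF replicate 5 in 15 of 15, PBMC replicate 5 in 15 of 15 and PBMC-hCG replicate 1 in 13 of 15. PBMC-hCG replicate 1 was among the 2 highest of its group in 15 of the 15 genes and replicate 4 in 14, while replicates 2, 3 and 5 had sums of 3035, 2963 and 3004 TPM. The lowest mice were control replicate 2 (lowest in 11 of 15), IF replicate 1 (14 of 15) and PBMC replicate 4 (12 of 15). The coefficient of variation among the 5 mice had a median over the 33 genes of 16.9% to 20.9% in the 4 groups, and reached 81.8% for Derl3 in the control group.

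**Figure D1:**
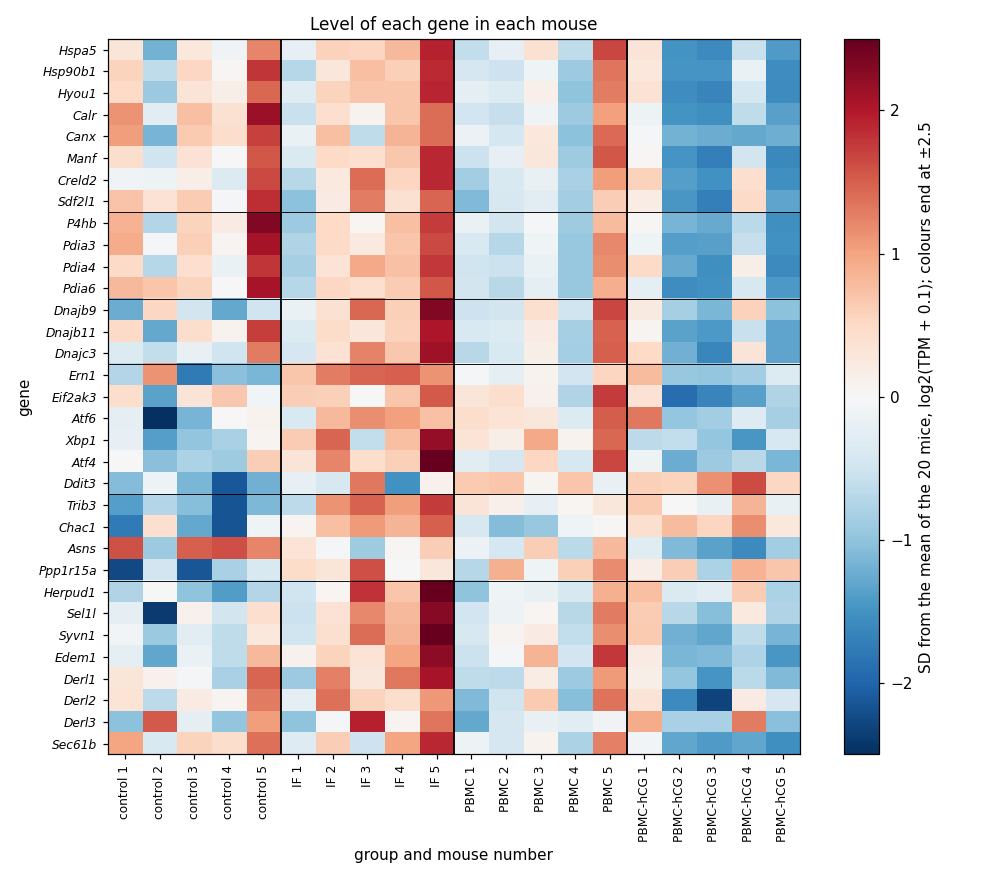
Level of the 33 genes (rows, ordered by role) in the 20 mice (columns), as SDs of log2(TPM + 0.1) from each gene's mean over all mice. The folding genes, in the upper 15 rows, are red in IF 5 and PBMC 5 and, but for Dnajb9, in control 5, and blue in PBMC-hCG 2, 3 and 5, while Ddit3 is below its mean in all control mice and above it in all PBMC-hCG mice.

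The comparison of IF with control asks what RU486, together with its injection, did by the evening of the day it was given. Of the 10 sensors, transcription factors and targets 6 were higher in the IF group, and of the 15 folding genes 1 was. With limma's moderated test and Benjamini-Hochberg adjustment over all genes tested, 8 of the 33 genes were higher and 0 lower at an adjusted p under 0.05, where 13.4% of all tested genes were higher and 8.53% lower. The 8 were Trib3, Chac1, Ppp1r15a, Herpud1, Ern1, Atf4, Xbp1 and Dnajb9. Without control replicate 2, 8 were higher and 1 lower, and without IF replicate 5 the count was 5. The median log2 fold change of the 33 was 0.23, and that of all tested genes 0.02. The study counted genes by a 2-fold change with an unadjusted p under 0.05. That rule was met by 4.03% of tested genes and, among the 33, by Trib3 alone.

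Of the ATF4 and CHOP targets, 3 of 4 rose. Trib3 (chromosome 2, 152337425 to 152344060), a pseudokinase that feeds back on ATF4 and CHOP, was at 4.64, 5.84, 5.19, 3.50 and 5.07 TPM in control mice 1 to 5 and at 6.004, 11.3, 12.8, 10.996 and 14.2 TPM in IF mice 1 to 5. Every IF mouse lay above every control mouse, although IF replicate 1 did so narrowly. The log2 fold change was 1.14 (SE 0.19, adjusted p = 0.00024). Chac1 (chromosome 2, 119351242 to 119354326), which degrades glutathione, was at 1.12, 2.67, 1.37, 0.954 and 2.17 TPM in control mice and at 2.32, 3.04, 3.44, 3.15 and 4.06 TPM in IF mice. Control replicate 2 alone reached into the IF range, and the log2 fold change was 0.99 (SE 0.23, adjusted p = 0.0043). Ppp1r15a (chromosome 7, 45522917 to 45526268) was at 24.9, 41.9, 25.8, 38.0 and 43.2 TPM in control mice and at 55.0, 52.6, 76.8, 48.1 and 52.4 TPM in IF mice. The groups did not overlap, with a log2 fold change of 0.73 (SE 0.19, adjusted p = 0.0085). Asns (asparagine synthetase, chromosome 6, 7675165 to 7693209) differed from its class, since control mice had 46.0, 19.0, 44.5, 46.6 and 40.3 TPM and IF mice 29.6, 25.7, 19.1, 26.4 and 32.6 TPM. Its log2 fold change of -0.51 (SE 0.22) was not called with all mice (adjusted p = 0.11), and was -0.75 (adjusted p = 0.0027) without control replicate 2, the mouse with the high gland markers.

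Among the sensors and transcription factors, 3 of 6 rose and all 6 lay above 0 on the log2 scale. Ern1 (chromosome 11, 106397620 to 106487796) was at 24.7 to 29.2 TPM in the IF mice and at 18.3, 27.1, 14.8, 17.2 and 16.9 TPM in the control mice, so that the groups overlapped through control replicate 2 alone. The log2 fold change was 0.58 (SE 0.13, adjusted p = 0.0035), and 0.71 without that mouse. Xbp1 (chromosome 11, 5520641 to 5525993), of which these data do not separate the spliced form, was at 285, 227, 245, 254 and 300.4 TPM in control mice and at 335, 393, 263, 344 and 454 TPM in IF mice. The groups overlapped through IF replicate 3, and the log2 fold change was 0.43 (SE 0.12, adjusted p = 0.012). Atf4 (chromosome 15, 80255184 to 80257545) was at 176, 141, 149, 146 and 200.4 TPM in control mice and at 188, 227, 193, 199.8 and 300.04 TPM in IF mice. Its log2 fold change was 0.44 (SE 0.14, adjusted p = 0.028). The call of Atf4 was lost when control replicate 2, 3 or 4 or IF replicate 2 or 5 was left out, with adjusted p-values of 0.054 to 0.086. Ddit3 (0.30, adjusted p = 0.099), Atf6 (0.20, adjusted p = 0.078) and Eif2ak3 (0.11, adjusted p = 0.40) did not pass.

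**Figure D2:**
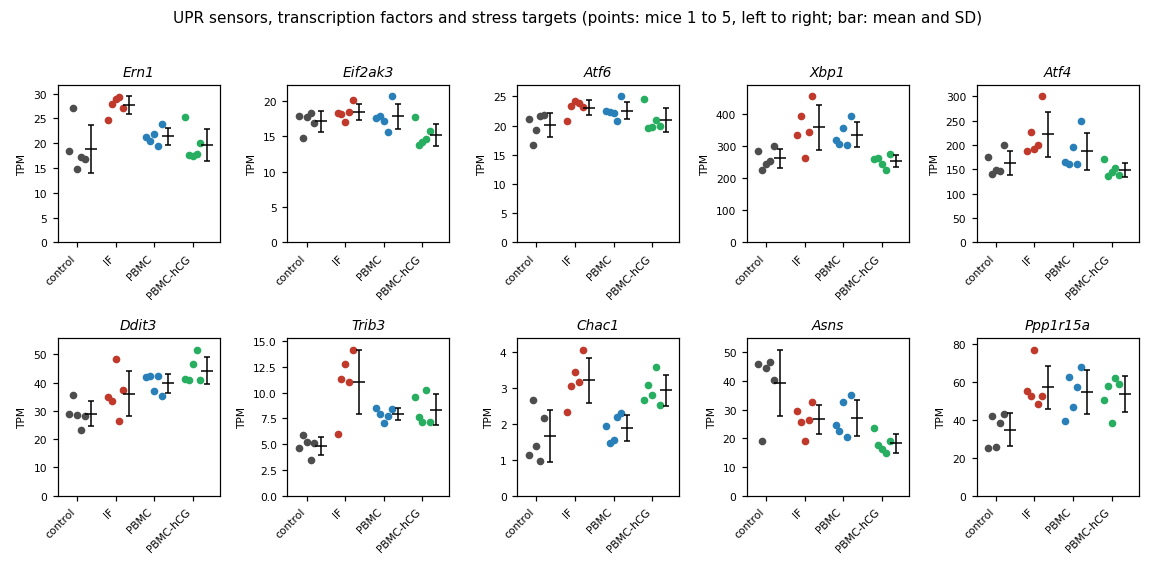
TPM of the 6 sensor and transcription factor genes and the 4 ATF4 and CHOP targets in the 5 mice of each group (points), with the mean and SD beside them. All 5 IF mice lie above all 5 control mice for Trib3 and Ppp1r15a, and all 5 PBMC-hCG mice lie above all control mice for Ddit3 and Trib3.

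Of the 8 genes of degradation and the translocon, Herpud1 rose. Herpud1 (chromosome 8, 94386429 to 94395371), which helps to assemble the HRD1 ligase complex, was at 95.2, 114, 89.3, 81.1 and 95.8 TPM in control mice and at 101, 116, 179, 136 and 222 TPM in IF mice. The highest control mouse lay above IF replicate 1 only. The log2 fold change was 0.61 (SE 0.18, adjusted p = 0.018), and 0.46 (adjusted p = 0.054) without IF replicate 5. Syvn1 (HRD1 itself, 0.42, adjusted p = 0.069), Edem1 (0.38, adjusted p = 0.098) and Sel1l (0.27, adjusted p = 0.095) were above 0 without passing, and Derl1, Derl2 and Sec61b lay between -0.02 and 0.08 on the log2 scale. Derl3, a derlin of secretory cells, varied most. Its log2 fold change was 0.41 (SE 0.63, adjusted p = 0.70). It was at 5.57, 35.9, 10.03, 5.75 and 25.2 TPM in control mice and at 5.66, 11.5, 48.5, 12.4 and 31.02 TPM in IF mice. The mice with its highest level in the control, IF and PBMC-hCG groups (control 2, IF 3 and PBMC-hCG 4) were also those with the highest summed gland markers of their group (24063, 12320 and 10310 TPM). In the PBMC group this was not so, since Derl3 was highest in replicate 5 (11.1 TPM, gland markers 2532 TPM) and the gland markers in replicate 4 (3833 TPM, Derl3 9.67 TPM). The part of the glands in the level of Derl3 was not tested.

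Of the 15 folding genes, 1 rose. Dnajb9 (chromosome 12, 44205897 to 44210068), a J-domain co-chaperone of BiP, was at 61.7, 86.9, 71.8, 61.1 and 71.3 TPM in control mice and at 76.0, 84.6, 103.8, 88.2 and 123 TPM in IF mice. The log2 fold change was 0.42 (SE 0.14, adjusted p = 0.043), and the call was lost when any of control replicates 1, 3, 4 and 5 or IF replicates 3, 4 and 5 was left out (adjusted p = 0.054 to 0.13). Without control replicate 2 it was 0.50 (adjusted p = 0.017). The other 14 lay between -0.17 (Calr) and 0.37 (Hspa5) on the log2 scale, 6 of them below 0. For Hspa5 the 95% interval of the difference ran from -0.21 to 0.95, and for P4hb, the gene with the narrowest spread among the folding genes, from -0.25 to 0.16. None of the 9 genes with an ERSE in the promoter was called, and 8 of the 20 without one were higher, with medians of 0.29 in both sets. The 20 include Dnajb11 and Herpud1, which hold the shorter ERSE-II, and Herpud1 was among the 8. The difference between the sets was not tested.

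Markers of other cells also differed between IF and control, where 13.4% of all tested genes were higher and 8.53% lower. The counts of several lists below are near those shares. Of 9 endothelial markers 8 were higher in IF mice (summed level 865 to 926 TPM against 531 to 684), of 12 epithelial markers 7 were higher and 1 lower (1259 to 1596 against 870 to 1561), and of 12 plasma cell markers tested of 14 listed 4 were lower and 2 higher (350 to 3479 against 1440 to 5367 TPM, with Tnfrsf17 at 0 in some mice of both groups). Of 14 myeloid markers 4 were higher, of 13 tested markers of T, B and NK cells 0 passed, of 12 stroma markers 4 were higher and 2 lower, of 10 gland markers 1 was higher and 2 lower, of 10 myometrial markers 1 was lower, and of 5 tested markers each of red cells and of adipose tissue, ovary and oviduct 0 and 1 were lower. Plasma cells and epithelium are rich in ER, and the part of these cells in the differences above was not tested.

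The comparison of PBMC with IF asks what the injection of cells cultured without hCG changed. No gene of the 33 was called, and none of all tested genes was (0% higher and 0% lower). At an unadjusted p under 0.05, 4 of the 33 lay lower (Ern1, Trib3, Chac1 and Herpud1) and 0 higher, where 2.7% of all tested genes lay lower and 4.09% higher. Of the 33, 31 had a log2 fold change below 0 (44.6% of all tested genes), with a median of -0.24 (0.02 over all tested genes). Ern1 was at 19.4 to 23.9 TPM in the PBMC mice, below all IF mice, with a log2 fold change of -0.37 (SE 0.13, adjusted p = 0.67). Chac1 was at 1.47 to 2.28 TPM, also below all IF mice, with -0.73 (SE 0.23, adjusted p = 0.62). How many of all tested genes had no overlap between groups was not counted, here or in the other comparisons. For Hspa5 the interval of the difference ran from -0.94 to 0.22. The 2-fold rule was met by 0.438% of tested genes and 0 of the 33.

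The comparison of PBMC-hCG with IF asks what cells cultured with hCG changed. Here 6 of the 15 folding genes, 4 of the 6 sensors and factors and 3 of the 8 degradation and translocon genes were lower. By limma's test 13 of the 33 genes were lower and 0 higher, where 5.99% of all tested genes were lower and 7.61% higher. The log2 fold change was below 0 in 32 of 33 genes (43.3% of all tested genes), with a median of -0.50 (0.05 over all tested genes). The 13 were Hspa5, Hyou1, Calr and Manf of the 8 chaperones, Pdia3 and Pdia6 of the 4 isomerases, Ern1, Eif2ak3, Xbp1 and Atf4 of the 6 sensors and factors, and Syvn1, Edem1 and Sec61b of the 8 degradation and translocon genes. None of the 4 ATF4 and CHOP targets and none of the 3 co-chaperones was called. The 2-fold rule was met by 2.31% of tested genes and 0 of the 33.

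These calls lay near the threshold, with adjusted p-values of 0.029 to 0.0498. Without any one of IF replicates 2, 4 and 5 or PBMC-hCG replicates 2, 3, 4 and 5 the count of the 33 called was 0, and of all tested genes 0 to 34 were then called instead of 2544. Without IF replicate 1 or PBMC-hCG replicate 1 it was 21, and without IF replicate 3 it was 18. The median log2 fold change of the 33 lay between -0.39 and -0.60 whichever mouse was left out.

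**Figure D3:**
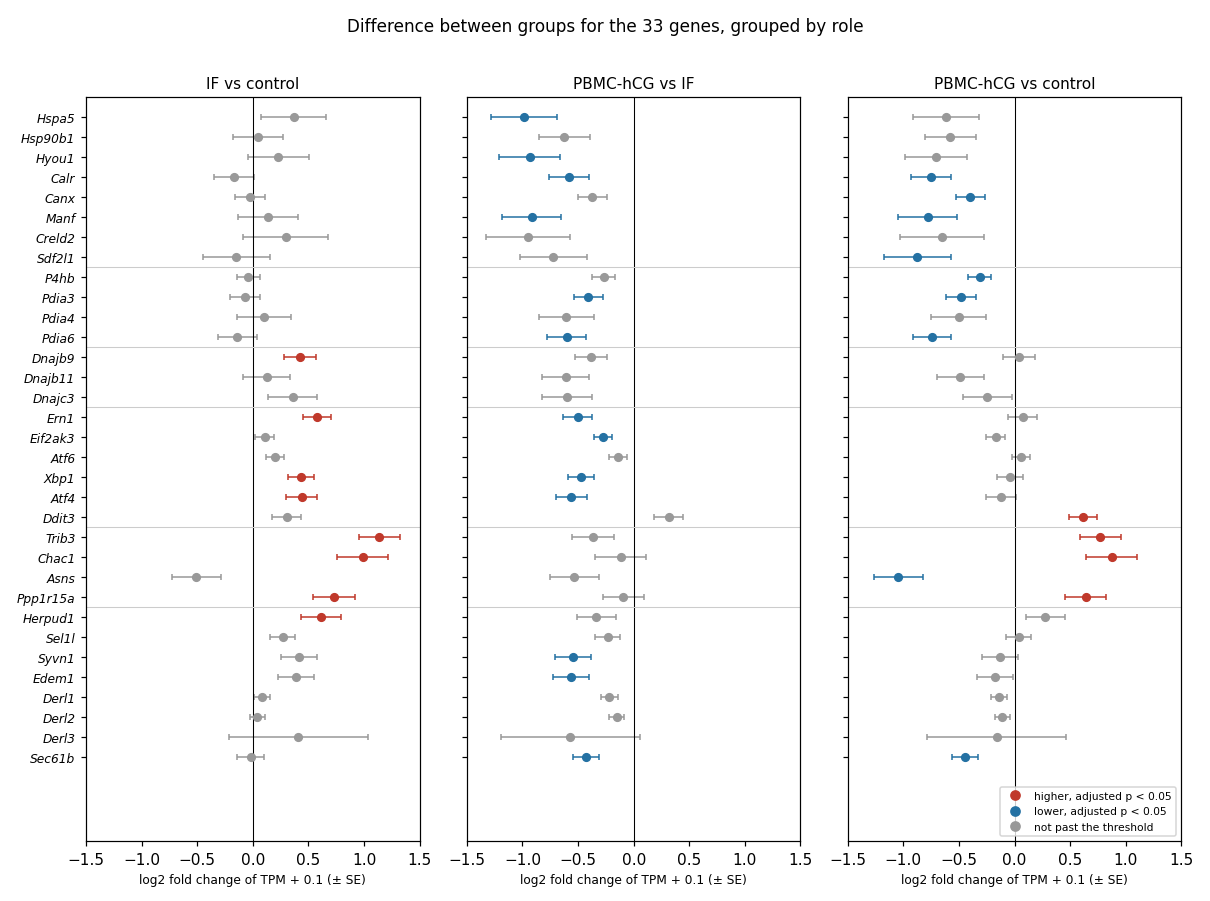
Log2 fold change of log2(TPM + 0.1) with its SE for the 33 genes in 3 comparisons, with genes ordered by role and grey lines between roles. Between IF and control the 8 called genes (red) lie among the signal genes, Herpud1 and Dnajb9, between PBMC-hCG and IF 13 genes are lower (blue), and between PBMC-hCG and control 9 are lower and 4 higher.

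Hspa5 (chromosome 2, 34772090 to 34776529) was at 618, 849, 841, 934 and 1471 TPM in IF mice 1 to 5 and at 768, 367, 352, 536 and 377 TPM in PBMC-hCG mice 1 to 5. PBMC-hCG replicate 1 lay above IF replicate 1, and the other 4 lay below every IF mouse. The log2 fold change was -0.98 (SE 0.30, adjusted p = 0.040), with means of 480 and 943 TPM. Hyou1 (chromosome 9, 44379490 to 44392369), a large HSP70 relative that exchanges the nucleotide of BiP, was at 90.3, 126, 133, 134 and 212 TPM in IF mice and at 117, 55.7, 53.8, 86.2 and 55.5 TPM in PBMC-hCG mice, with the same pair overlapping. It fell by 0.93 on the log2 scale (SE 0.28, adjusted p = 0.039). Manf (chromosome 9, 106888753 to 106891938), a secreted factor retained in the ER with BiP, was at 231, 321, 310.4, 341 and 544 TPM in IF mice and at 268, 151, 138, 223 and 144 TPM in PBMC-hCG mice, a log2 fold change of -0.92 (SE 0.27, adjusted p = 0.037). Calr (chromosome 8, 84842088 to 84846931) was at 649, 857, 779, 922 and 1126 TPM in IF mice and at 732, 500.4, 494, 635 and 519.8 TPM in PBMC-hCG mice, which gave -0.58 (SE 0.18, adjusted p = 0.043). In each of these 4 genes PBMC-hCG replicate 1 stood above the lowest IF mouse, replicate 1.

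Creld2, Sdf2l1, Hsp90b1 and Canx, the other 4 chaperones, had log2 fold changes of -0.95, -0.72, -0.62 and -0.37 without passing (adjusted p = 0.089, 0.098, 0.066 and 0.063). Creld2 was spread most, at 70.5 to 247 TPM in IF mice and at 131, 50.6, 47.5, 121 and 47.1 TPM in PBMC-hCG mice. Replicates 1 and 4 stood far above the other 3. Of the isomerases, which form and shuffle disulfide bonds, Pdia6 (chromosome 12, 17266589 to 17284785) was at 267, 375, 364, 388 and 498 TPM in IF mice and at 306, 211, 213, 291 and 218 TPM in PBMC-hCG mice. Its log2 fold change was -0.60 (SE 0.17, adjusted p = 0.036). Pdia3 (chromosome 2, 121413902 to 121438687), which works with the lectins on glycoproteins, fell by 0.41 (SE 0.13, adjusted p = 0.0498) from a mean of 477 to 358 TPM. Pdia4 and P4hb lay at -0.60 and -0.27 (adjusted p = 0.091 and 0.079). The co-chaperones Dnajb11, Dnajc3 and Dnajb9 lay at -0.61, -0.60 and -0.38, with adjusted p-values of 0.057, 0.070 and 0.077.

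**Figure D4:**
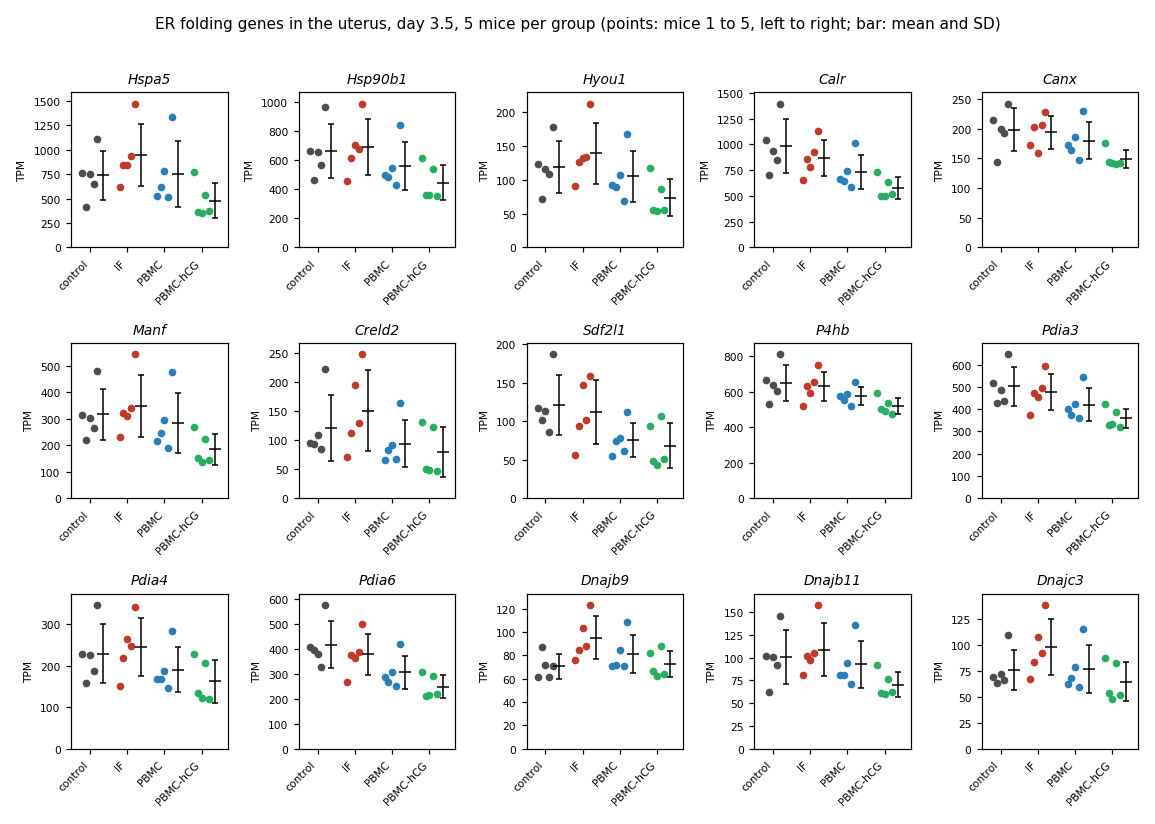
TPM of the 15 folding genes in the 5 mice of each group (points), with the mean and SD beside them. In most panels PBMC-hCG replicates 2, 3 and 5 lie together at the bottom, as for Hspa5 at 352 to 377 TPM, and replicates 1 and 4 lie above them.

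Among the sensors and factors, Atf4 had no overlap between the groups, at 171, 136, 145, 152 and 138 TPM in PBMC-hCG mice, all below the lowest IF mouse at 188 TPM. It fell by 0.56 on the log2 scale (SE 0.14, adjusted p = 0.029). Xbp1 was at 261, 263, 246, 224 and 274 TPM in PBMC-hCG mice. It overlapped with IF replicate 3 only (263 TPM) and fell by 0.48 (SE 0.12, adjusted p = 0.029). Ern1 was at 25.3, 17.6, 17.5, 17.8 and 19.96 TPM, where replicate 1 alone reached the IF range, and fell by 0.50 (SE 0.13, adjusted p = 0.030). Eif2ak3 (chromosome 6, 70844484 to 70905241) was at 17.7, 13.8, 14.2, 14.7 and 15.7 TPM against 17.1 to 20.2 TPM in IF mice, a small fall of 0.28 (SE 0.08, adjusted p = 0.041). Atf6 lay at -0.14 (adjusted p = 0.22). Ddit3 (chromosome 10, 127290793 to 127296291) was the 1 gene of the 33 above 0, at 41.3, 41.0, 46.5, 51.6 and 40.7 TPM against 34.9, 33.5, 48.3, 26.5 and 37.3 TPM in IF mice. Its log2 fold change of 0.31 (SE 0.13) did not pass (adjusted p = 0.094).

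The 3 targets that had been higher in the IF group were not called here. Trib3, Chac1 and Ppp1r15a had log2 fold changes of -0.36, -0.12 and -0.09 (adjusted p = 0.17, 0.75 and 0.76), and for Chac1 the interval ran from -0.56 to 0.33. Asns was at 23.5, 17.7, 16.3, 14.9 and 19.2 TPM in PBMC-hCG mice, at -0.53 (adjusted p = 0.098). Of the degradation genes, Edem1 (chromosome 6, 108824045 to 108859356), which draws misfolded glycoproteins to disposal, was at 33.5, 37.2, 35.4, 41.1 and 54.8 TPM in IF mice and at 34.3, 25.2, 25.4, 27.3 and 23.4 TPM in PBMC-hCG mice, and fell by 0.56 (SE 0.16, adjusted p = 0.036). Syvn1 (chromosome 19, 6046576 to 6053718) was at 62.6, 41.2, 40.4, 46.8 and 41.6 TPM in PBMC-hCG mice against 48.2 to 98.5 TPM, a fall of 0.55 (SE 0.16, adjusted p = 0.038). Sec61b (chromosome 4, 47474661 to 47483233), a subunit of the channel through which chains enter the ER, was at 298, 239, 234, 239 and 229 TPM against 275 to 423 TPM, a fall of 0.43 (SE 0.12, adjusted p = 0.034). Herpud1 (-0.34), Sel1l (-0.23), Derl1 (-0.22), Derl2 (-0.15) and Derl3 (-0.57) did not pass, with adjusted p-values of 0.053 to 0.54.

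The 9 genes with an ERSE had a median log2 fold change of -0.60 and 4 lower calls, and the 20 genes without one had a median of -0.39 and 7 lower calls. These are descriptions of the 29 genes with a promoter, and the difference between the sets was not tested. Beside these falls, of 5 red cell markers tested of 7 listed 2 were lower in PBMC-hCG than in IF mice (summed level 342 to 878 against 640 to 1802 TPM, with Slc4a1 at 0 in some mice of both groups). Of 12 plasma cell markers 1 was lower, with summed levels of 322 to 976 against 350 to 3479 TPM. Of 10 gland markers 1 was higher (3867 to 10310 against 2707 to 12320 TPM), as were 2 of 12 stroma and 1 of 12 epithelial markers, and of 9 endothelial markers 1 was higher and 1 lower. Several of these counts are near the shares of all tested genes (5.99% lower and 7.61% higher). No marker of the other 4 lists passed. Their part in the result was not tested.

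The comparison of PBMC-hCG with PBMC asks what hCG in the culture added, together with any hCG injected with the cells. No gene of the 33 was called, and 0.00535% of all tested genes were higher and 0.00535% lower. At an unadjusted p under 0.05, 8 of the 33 lay lower and 1 higher, where 7.51% of tested genes lay lower and 8.66% higher. Xbp1 had no overlap, at 224 to 274 TPM against 302 to 393 TPM in PBMC mice, with a log2 fold change of -0.40 (SE 0.12, adjusted p = 0.26). Chac1 was the one that lay higher, at 2.65, 3.08, 2.81, 3.57 and 2.51 TPM against 1.94, 1.47, 1.55, 2.18 and 2.28 TPM. Every PBMC-hCG mouse lay above every PBMC mouse, and the log2 fold change was 0.62 (SE 0.23, adjusted p = 0.28). All 15 folding genes had a log2 fold change below 0, from -0.63 (Hspa5, interval -1.21 to -0.05, adjusted p = 0.31) to -0.15 (P4hb). Of all tested genes 45.5% lay below 0. The 2-fold rule was met by 0.893% of tested genes and 0 of the 33.

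Set against the control group, the PBMC mice had 4 genes higher and 0 lower, where 12.8% of tested genes were higher and 6.7% lower. The part of the 33 genes that was higher is thus near the share of all tested genes. The count was 2 without control replicate 3, 4 higher and 2 lower without control replicate 2, and 6 higher and 6 lower with libraries weighted by their estimated quality. Trib3 was at 7.07 to 8.52 TPM, above all control mice (log2 fold change 0.72, SE 0.19, adjusted p = 0.011). Ppp1r15a was at 39.2 to 68.0 TPM (0.66, SE 0.19, adjusted p = 0.017), and its call was lost without control replicate 1 or 3 (adjusted p = 0.0504 and 0.0506). Ddit3 was at 41.9, 42.3, 37.0, 42.3 and 35.1 TPM against 29.0, 35.5, 28.6, 23.2 and 28.3 TPM (0.46, SE 0.13, adjusted p = 0.015). Xbp1 was at 302 to 393 TPM, above all control mice (0.35, SE 0.12, adjusted p = 0.040), and its call was lost without control replicate 2, 3 or 4 or PBMC replicate 1, 3 or 5 (adjusted p = 0.053 to 0.095). The 2-fold rule was met by 3.34% of tested genes and 0 of the 33. Beside these values, 7 of 9 endothelial markers were higher in PBMC than in control mice (summed level 830 to 920 against 531 to 684 TPM), 6 of 12 epithelial markers were higher and 1 lower, 5 of 12 stroma markers were higher and 3 lower, and 3 of 14 myeloid markers were higher. Of the plasma cell, gland and lymphocyte lists 1 marker each was higher, and of adipose tissue, ovary and oviduct 1 was lower. Several of these marker counts are near or under the shares of all tested genes (12.8% higher and 6.7% lower). Their part was not tested.

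Between PBMC-hCG and control, genes were called in both directions. Of the 33, 9 were lower and 4 higher, where 11.6% of tested genes were lower and 20.2% higher. The higher genes are thus fewer than the share of all tested genes would give, and the lower genes more. Without control replicate 2, 14 were lower and 4 higher. Of the 15 folding genes 7 were lower (Calr, Canx, Manf, Sdf2l1, P4hb, Pdia3 and Pdia6), with log2 fold changes of -0.87 to -0.31. Pdia6 was at 326 to 576 TPM in control mice and at 211 to 306 TPM in PBMC-hCG mice, without overlap (-0.74, SE 0.17, adjusted p = 0.0035). Pdia3 did not overlap either, at 427 to 646 TPM against 322 to 422 TPM (-0.48, SE 0.13, adjusted p = 0.011). Calr fell by 0.75 (SE 0.18, adjusted p = 0.0041) from a mean of 985 to 576 TPM. Sec61b fell by 0.45 (SE 0.12, adjusted p = 0.0083). Hspa5 was at -0.62 without passing (adjusted p = 0.12, interval -1.20 to -0.04).

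The 4 genes above control were Ddit3, Trib3, Chac1 and Ppp1r15a. Ddit3 at 40.7 to 51.6 TPM lay above all control mice (23.2 to 35.5 TPM), with a log2 fold change of 0.62 (SE 0.13, adjusted p = 0.0014). Trib3 at 7.11 to 10.3 TPM also lay above all control mice (3.50 to 5.84 TPM), with 0.77 (SE 0.19, adjusted p = 0.0044). Chac1 had 0.87 (SE 0.23, adjusted p = 0.0072) and Ppp1r15a 0.64 (SE 0.19, adjusted p = 0.014). Ern1, Xbp1 and Atf4 lay at 0.07, -0.04 and -0.12 (adjusted p = 0.70, 0.80 and 0.53). Asns moved the other way from the other targets, at 14.9 to 23.5 TPM against 19.0 to 46.6 TPM, and its log2 fold change of -1.04 (SE 0.22, adjusted p = 0.0017) was the only one of the 33 to meet the 2-fold rule, which 4.74% of tested genes met. Without control replicate 2 it was -1.29. Canx, Manf, Sdf2l1 and P4hb lost their calls when 1 of several mice was left out, among them control replicates 1 and 5 and PBMC-hCG replicates 2, 3 and 5 (adjusted p up to 0.098), and the other 9 of these 13 kept theirs whichever mouse was left out. Beside these values, 9 of 9 endothelial markers were higher and 5 of 10 myometrial markers lower in PBMC-hCG than in control mice, and of 12 plasma cell markers 6 were lower and 3 higher. Epithelial markers were higher in 6 and lower in 1 of 12, stroma markers higher in 5 and lower in 3 of 12, gland markers higher in 1 and lower in 3 of 10, myeloid markers higher in 4 of 14, and markers of T, B and NK cells higher in 3 of 13. Of 5 tested markers each, 1 red cell marker and 1 of adipose tissue, ovary and oviduct were lower. Several of these marker counts are near or under the shares of all tested genes (20.2% higher and 11.6% lower). Their part was not tested. All comparisons with control share its 5 mice, and those with IF share the IF mice.

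Other genes of the ER were described through 8 lists that hold none of the 33. Their counts between IF and control stand beside 13.4% of all tested genes higher and 8.53% lower, and several are near or under those shares. Between IF and control, 5 of 21 further degradation genes rose and 0 fell, with a median log2 fold change of 0.13. Among them were Ube2g2, a conjugating enzyme (0.53, SE 0.14, adjusted p = 0.012, from 74.5 ± 7.09 to 109 ± 20.3 TPM), and Fam8a1 (0.27, adjusted p = 0.040). Of 19 signal transducers tested 3 rose and 0 fell, among them the eIF2 kinase gene Eif2ak2 (0.48, SE 0.11, adjusted p = 0.0053), Tmbim6 (0.24, adjusted p = 0.049) and Creb3l2 (0.24, adjusted p = 0.045). Of 32 further ATF4 targets 7 rose and 4 fell. The largest rise was that of Cebpb, a transcription factor (1.89, SE 0.33, adjusted p = 0.00038), from 30.9 ± 13.4 to 113 ± 40.2 TPM (SD, n = 5). The largest falls were those of Cth, which makes cysteine (-2.38, SE 0.22, adjusted p = 6.0e-07), from 19.6 ± 6.16 to 3.56 ± 0.536 TPM, and Phgdh, the first enzyme of serine synthesis (-2.28, SE 0.27, adjusted p = 9.1e-06), from 55.7 ± 20.8 to 10.6 ± 2.03 TPM. Cth and Phgdh, like Asns, which was not called in this comparison, encode enzymes that make amino acids. Both were named for the size of their change, and a theme shared by such genes was not tested.

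The list of redox enzymes and prolyl isomerases had 0 of 17 higher and 1 lower (the prolyl isomerase gene Fkbp7, -0.64, adjusted p = 7.4e-05). The translocon list had 1 of 18 higher (Sec62, 0.20, adjusted p = 0.0016) and 0 lower. N-glycosylation had 1 of 18 higher (Man1b1, 0.14, adjusted p = 0.029) and 1 lower (Rpn2, -0.23, adjusted p = 0.047). Vesicle transport by COPII and COPI had 2 of 23 higher (Sec24b, 0.24, adjusted p = 0.0022, and Sec24c, 0.17, adjusted p = 0.016) and 1 lower (Sec23b, -0.43, adjusted p = 0.030). Cytosolic and mitochondrial heat shock proteins had 0 of 19 higher and 3 lower (Cryab -0.68, Hspe1 -0.48 and Trap1 -0.32, with adjusted p-values of 0.0051, 0.018 and 0.012).

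Between PBMC-hCG and IF all 8 lists had medians below 0, where the median of all tested genes was 0.05. Of all tested genes 43.3% lay below 0, 5.99% were lower and 7.61% higher. The counts of transducers are near those shares. All 18 translocon genes lay below 0 and 5 were lower (median -0.25). Of 23 transport genes 21 lay below 0 and 6 were lower (median -0.28), among them Sec23b (-0.52, adjusted p = 0.031) and Sec24c (-0.17, adjusted p = 0.037). Of 18 glycosylation genes 17 lay below 0 and 3 were lower (median -0.21), and of 21 degradation genes 14 lay below 0 with 5 lower and 1 higher (median -0.13). Ube2g2 fell by 0.61 (SE 0.14, adjusted p = 0.029) and Fam8a1 was higher by 0.33 (adjusted p = 0.033). Of 17 redox and prolyl isomerase genes 2 were lower (median -0.16), and of 19 heat shock genes 2 were lower (median -0.27). Of 19 transducers 1 was lower and 2 higher (median -0.09). Of 32 ATF4 targets 5 were lower and 2 higher (median -0.21), and Cebpb fell by 1.55 (SE 0.33, adjusted p = 0.026) to 39.0 ± 15.9 TPM. Cth and Phgdh lay at 0.47 and 0.22 (adjusted p = 0.13 and 0.60) and were at 5.06 ± 1.22 and 12.5 ± 3.37 TPM. The calls of these lists belong to the comparison in which 0 to 34 genes in all were called without some single mice, as given above.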

How the data were processed

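RNA from uteri of 20 mice (4 groups of 5, from the sample labels) was sequenced from stranded mRNA libraries. The authors trimmed the reads (Trimmomatic), aligned them to mm10 (HISAT2) and used StringTie to quantify genes, and the deposited table holds TPM (tool versions not given in the sources used here). TPM keeps no read depth, so no counting error is given. Labels do not tie the replicate numbers of different groups together. Of 30 pairs of same-numbered mice from different groups, 8 had deviations from the group means that correlated above 0.1. Of 120 differently numbered pairs from different groups, 31 did.

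Genes above 0 TPM in every library (18706) were transformed to log2(TPM + 0.1). A single model of the 4 groups was fitted in R 4.3.3 by limma 3.58.1, with the variance allowed to trend with the mean. P-values measure the spread between these mice. Fold changes are on that scale, which draws genes at low TPM toward 0. P-values were adjusted by Benjamini-Hochberg within each of 6 comparisons, and a gene was called at an adjusted p under 0.05. The study's exact test needs counts and was replaced. Intervals are the estimate ± 1.96 SE. On data simulated for IF against control over 18706 genes, 75 of 100 genes changed by 1 on the log2 scale and 94 of 100 changed by 2 were recovered, with 11 false calls. The simulated noise was independent between genes, and 200 genes were changed. Genes that move together within mice, as the folding genes did, were not simulated. All 33 genes were to be named, with the 3 largest called changes between IF and control from each further list, except items that are not reported here. The genes and lists were chosen with earlier results of these data known. Promoters and gene positions came from RefSeq (GRCm38.p6), positions being matched for all 33 genes. Protein sequences were not used here. Figures were drawn with matplotlib. Alternatives were other pseudocounts (0.01 and 1), filters, scalings and fits, and each mouse left out in turn.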

Additional observations from a re-analysis of the deposited data

Results flagged for a closer look

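Within groups of 5 mice, the highest and lowest value of each of the 33 genes was set against the others by Dixon's ratio (critical value 0.71). Of 132 groups 11 had such a value, where chance gives about 1 in 20. In the control group these were replicate 5 for Creld2 (221 TPM, next 108) and Dnajc3 (109 TPM, next 71.6), and replicate 2 for Ern1 (27.1 TPM, next 18.3) and, as the lowest, Asns (19.0 TPM, next 40.3). In the IF group it was replicate 3 for Ppp1r15a (76.8 TPM, next 55.0). In the PBMC group replicate 5 stood out for Hsp90b1 (845 TPM, next 548) and Creld2 (164 TPM, next 90.7). In the PBMC-hCG group replicate 1 stood out for Canx (176 TPM, next 144), Atf6 (24.5 TPM, next 20.9), Syvn1 (62.6 TPM, next 46.8) and Sec61b (298 TPM, next 239).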

How the results depend on the processing

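Under 20 alternatives per comparison no called difference changed sign. Between IF and control, Ern1, Trib3, Chac1 and Ppp1r15a were called in all 20, Xbp1 in 19, Herpud1 in 18, Atf4 in 13 and Dnajb9 in 7. The count of 8 became 4 when only the 2 groups were fitted and 1 under the rule of a 2-fold change. Between PBMC-hCG and IF the count of 13 became 3 without a filter on low values, 28 with array weights (libraries weighted by their estimated quality) and 0 under the 2-fold rule. Array weights gave 5 instead of 0 between PBMC-hCG and PBMC, 12 instead of 4 between PBMC and control, and 20 instead of 13 between PBMC-hCG and control, where the 2-fold rule gave 0 (PBMC) and 1 (PBMC-hCG). Leaving out single mice gave counts of 5 to 10 (IF and control), 0 to 0 (PBMC and IF), 0 to 21 (PBMC-hCG and IF), 0 to 0 (PBMC-hCG and PBMC), 2 to 6 (PBMC and control) and 9 to 18 (PBMC-hCG and control). With the replicate number as a block, which the labels do not support as a pairing, the counts in this order were 7, 0, 17, 0, 4 and 16. Same-numbered mice had a median correlation of deviations of -0.0097, and other pairs 0.0088. The causes of these changes were not tested. Without read counts, the precision of low genes such as Chac1 cannot be given.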
